A study of Mus musculus with 6 samples.

Results

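Reactive gliosis and acute-phase genes of the mouse retina were measured as 10 transcripts, matched by gene symbol: Osmr, Stat3, Socs3, Cebpd, Gfap, Serpina3n, Lcn2, A2m, Timp1 and Fgf2. The genes were chosen with earlier results of these data known. Each had 1 row among the 25124 gene models of the deposited count table, and all 10 passed the filter on low counts. Poly-A RNA of the whole retina was sequenced from C57BL/6J mice aged 4 months. There were 3 libraries of mice carrying the C234W substitution in Elovl2, which encodes an elongase of long polyunsaturated fatty acids, and 3 libraries of wild-type (WT) mice of the same strain and age. The sources used here give neither the zygosity of the substitution nor whether each library came from a separate animal. The C234W libraries are named FS3A, FS3B and FS5A, and the WT libraries WT1A, WT2A and WT2B. FS3A and FS3B share a number, as do WT2A and WT2B, so the p-values describe spread among these samples, which may be partly technical.

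Reactive gliosis is the response of Müller glia and astrocytes, the macroglia of the retina, to injury, disease or inflammation. Cytokines of the interleukin-6 family bind receptors that contain gp130, Janus kinases phosphorylate STAT3, and STAT3 enters the nucleus and raises its targets, among them its own inhibitor Socs3 and the filament gene Gfap. Several of the secreted products, such as serpins, lipocalin 2 and alpha-2-macroglobulin, are also acute-phase proteins that the liver releases in systemic inflammation. In whole tissue, fewer cells of a type and less RNA per cell cannot be told apart.

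A single substitution is not visible in counts per gene, so the genotype labels were not checked against the data. Libraries of one genotype differed, and the values below are therefore given library by library. Counts in genes ran from 15804645.5 to 19298613 per C234W library and from 14184093 to 18710329 per WT library. Across genes, the log2 CPM (tag counts scaled to library size by the TMM method) of WT1A correlated at Pearson r of 0.964 to 0.972 with the C234W libraries and at 0.956 to 0.961 with the other WT libraries; genes are not independent replicates. Rod genes marked the tissue as retina. The summed level of 10 rod markers was 69597.1 to 92149.4 CPM in C234W libraries and 105219 to 162931 CPM in WT libraries. Pigment epithelium markers, 9 in number, summed to 109 to 170.1 CPM in C234W libraries, against 77.1 to 756 CPM in WT libraries, with the 756 CPM in WT1A.

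The gliosis genes were most abundant in FS3A and FS3B, intermediate in WT1A, and low in FS5A, WT2A and WT2B. This order, with FS3A and FS3B above the other libraries and WT1A next, held for 9 of the 10 genes and for 3.47% of all genes tested. The order was read from the values of these same genes, so the 2 shares are a description and not a test. Socs3 was the exception, with WT1A above FS3B. The C234W and WT libraries overlapped for every one of the 10 genes, whereas the groups were separate for 29.1% of the genes tested. All 10 had a positive log2 fold change (C234W over WT) by edgeR's quasi-likelihood test, and 0 passed a Benjamini-Hochberg adjusted p of 0.05, a threshold passed by 1.82% of the 14685 genes tested, 0.293% higher and 1.53% lower. At an unadjusted p under 0.05, 5 of the 10 were higher, against 12.2% of all tested genes. Their median log2 fold change was 1.62, and that of all tested genes was 0.02.

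**Figure D1:**
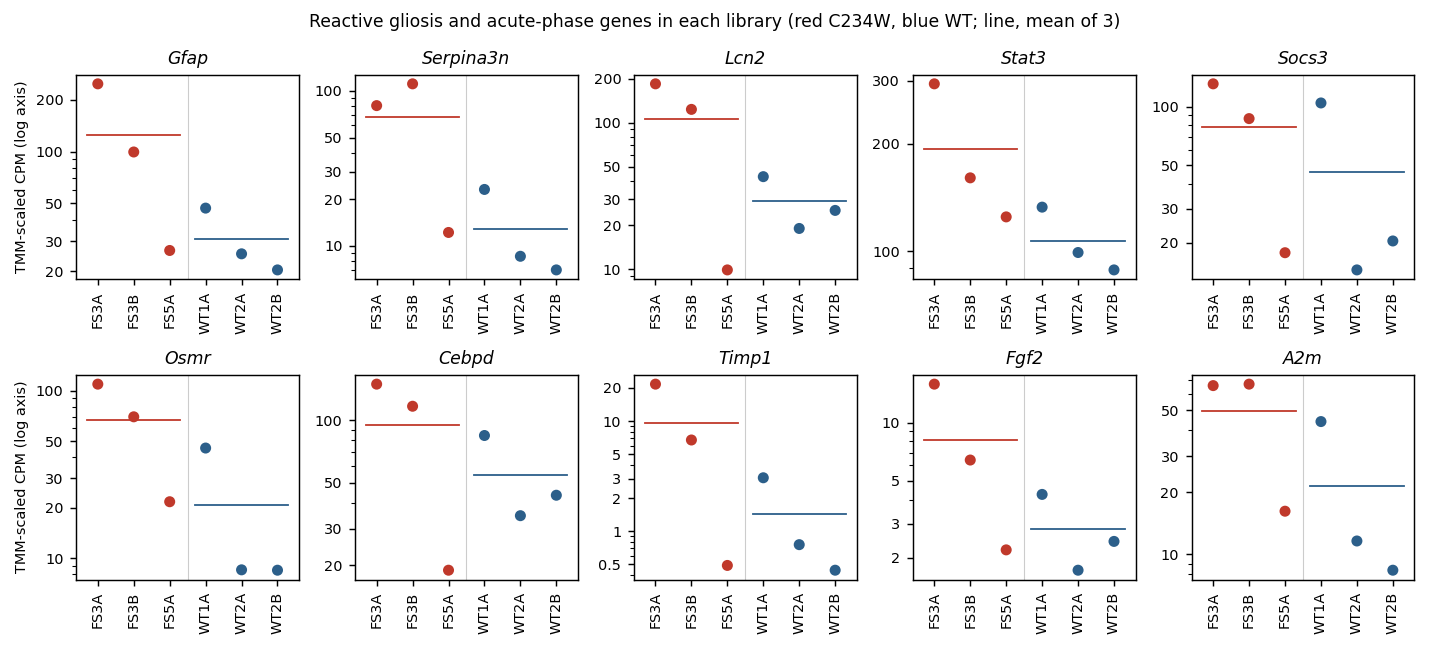
TMM-scaled CPM (log axis, a separate scale per panel) of the 10 gliosis genes in each library, with C234W libraries in red on the left and WT libraries in blue on the right; lines are means of 3 libraries. FS3A and FS3B sit above the 4 other libraries for every gene except Socs3, and FS5A sits among the WT libraries or below them.

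Osmr, Stat3, Socs3 and Cebpd make up the signalling arm. Osmr encodes the receptor chain that pairs with gp130 to bind oncostatin M (NM_011019, chr15:6813577-6874313 on mm10, minus strand). It was measured at 109, 69.8 and 21.7 CPM in FS3A, FS3B and FS5A, against 45.4, 8.50 and 8.46 CPM in WT1A, WT2A and WT2B. The lowest C234W library lay below the highest WT library and above the other WT libraries. The means were 67.0 ± 43.9 CPM in C234W and 20.8 ± 21.3 CPM in WT (SD, n = 3 each), with a log2 fold change of 1.69 (SE 0.78, edgeR adjusted p = 0.216).

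Stat3 is the transcription factor on which these cytokine signals converge (NM_213660, chr11:100886806-100939540, minus strand). Its level was 294, 161 and 125 CPM in FS3A, FS3B and FS5A and 133, 99.3 and 88.7 CPM in WT1A, WT2A and WT2B. FS5A thus stood close to WT1A, and the 2 groups overlapped by these libraries alone. Its log2 fold change was 0.85 (SE 0.31, edgeR adjusted p = 0.133), among the smaller of the 10.

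Socs3 encodes the feedback inhibitor that binds gp130 and Janus kinases (NM_007707, chr11:117966087-117969366, minus strand). It had 131, 86.7 and 17.8 CPM in FS3A, FS3B and FS5A, against 104, 14.5 and 20.5 CPM in WT1A, WT2A and WT2B. High and low libraries occurred in both genotypes, and the SD of log2 CPM was 1.51 in C234W and 1.51 in WT. The fold change was the smallest of the 10, at 0.76 on the log2 scale (SE 0.87, edgeR adjusted p = 0.612).

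Cebpd encodes C/EBP delta, a factor that drives acute-phase promoters (NM_007679, chr16:15887286-15889545, plus strand). FS3A, FS3B and FS5A had 149, 117 and 19.0 CPM, and WT1A, WT2A and WT2B had 84.5, 34.7 and 43.6 CPM. FS5A held the lowest value of all libraries, below each WT library. The log2 fold change was 0.81 (SE 0.67, edgeR adjusted p = 0.47).

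Promoters were examined because the genes varied together across libraries and Gfap and Socs3 are classical STAT3 targets. Windows from 250 bases before to 50 bases after a transcript start were found for 8 of the 10 genes in RefSeq on GRCm38.p6; Cebpd and A2m were not matched. Each window was set on the start of the counted transcript. For Socs3 and Osmr the RefSeq gene reaches upstream of it, to bases 117970336 and 6874968, so those windows lie inside the gene. For Stat3, Serpina3n and Fgf2 the RefSeq gene also begins upstream of the counted start, within the window. The STAT motif TTCNNNGAA, which reads the same on both strands, occurred in 2 of the 8 windows, those of Gfap and Socs3, and in 8.3% of 32851 mouse windows of the same length. The C/EBP motif TTNNGNAA, searched on both strands, occurred in 5 of the 8 and in 40.7% of all windows; it was in neither Gfap nor Socs3, so the motifs did not overlap there. A match is a description of letters and not a binding site. The windows with a STAT motif are printed 5′ to 3′ on the gene's strand, with the match in capitals. The match begins at position -2 from the transcript start in Gfap (chr11:102897151-102897450, minus strand) and at -154 in Socs3 (chr11:117969317-117969616, minus strand).
Gfap: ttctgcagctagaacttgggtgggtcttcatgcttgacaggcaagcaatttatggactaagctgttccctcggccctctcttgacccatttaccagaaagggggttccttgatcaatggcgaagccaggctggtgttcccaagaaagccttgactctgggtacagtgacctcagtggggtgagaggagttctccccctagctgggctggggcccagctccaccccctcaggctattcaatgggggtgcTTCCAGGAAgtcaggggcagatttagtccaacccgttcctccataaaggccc
Socs3: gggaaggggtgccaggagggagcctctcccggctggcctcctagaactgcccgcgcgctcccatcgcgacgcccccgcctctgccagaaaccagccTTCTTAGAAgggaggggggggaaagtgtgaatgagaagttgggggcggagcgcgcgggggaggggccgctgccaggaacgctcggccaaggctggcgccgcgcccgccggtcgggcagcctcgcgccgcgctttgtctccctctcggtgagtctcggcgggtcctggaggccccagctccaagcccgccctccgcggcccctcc

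Among the products of reactive glia, Gfap encodes the intermediate filament used as the standard marker of gliosis, found at rest mainly in retinal astrocytes (NM_010277, chr11:102887336-102897200, minus strand). Its level was 248, 99.4 and 26.5 CPM in FS3A, FS3B and FS5A, against 46.8, 25.3 and 20.4 CPM in WT1A, WT2A and WT2B. FS3A was 9.39 times FS5A, although both carry the substitution, and FS5A was 1.16 times the mean of WT2A and WT2B. The means were 125 ± 113 CPM in C234W and 30.8 ± 14.0 CPM in WT (SD, n = 3 each), a log2 fold change of 2.02 (SE 0.72, edgeR adjusted p = 0.142).

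Serpina3n encodes a secreted serine protease inhibitor and is a widely used reactive astrocyte gene (NM_009252, chr12:104406708-104414329, plus strand). It had 80.4, 111 and 12.2 CPM in FS3A, FS3B and FS5A and 23.1, 8.56 and 6.99 CPM in WT1A, WT2A and WT2B. FS3B was above FS3A, an order shared with A2m and no other gene of the 10. The log2 fold change of 2.40 (SE 0.78) had the lowest edgeR adjusted p of the 10, at 0.119. Serpina3n belongs to a cluster of similar serpin genes, and counting of uniquely mapped tags makes its absolute level uncertain.

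Lcn2 encodes lipocalin 2, which sequesters bacterial siderophores and is secreted in inflammation (NM_008491, chr2:32384637-32387739, minus strand). FS3A, FS3B and FS5A were at 184, 123 and 9.88 CPM, and WT1A, WT2A and WT2B at 42.8, 18.9 and 25.2 CPM. FS5A was the lowest of all libraries, at 0.448 times the mean of WT2A and WT2B. The log2 fold change was 1.87 (SE 0.85, edgeR adjusted p = 0.209).

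A2m encodes alpha-2-macroglobulin, a broad protease trap cleared through the receptor Lrp1 (NM_175628, chr6:121636173-121679238, plus strand). Its values were 66.0, 67.1 and 16.2 CPM in FS3A, FS3B and FS5A and 44.2, 11.6 and 8.39 CPM in WT1A, WT2A and WT2B. FS3A and FS3B were nearly equal, and WT1A was 4.41 times the mean of WT2A and WT2B. This gave a log2 fold change of 1.22 (SE 0.71, edgeR adjusted p = 0.312).

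Timp1 encodes a secreted inhibitor of matrix metalloproteinases (NM_001044384, chrX:20870166-20874737, plus strand). It was the least abundant of the 10 in WT, with 21.7, 6.73 and 0.488 CPM in FS3A, FS3B and FS5A and 3.06, 0.754 and 0.441 CPM in WT1A, WT2A and WT2B. FS5A, WT2A and WT2B rested on 8, 14 and 6 rounded counts, and their exact 95% Poisson intervals, which cover counting error only, were 0.211 to 0.961, 0.412 to 1.26 and 0.162 to 0.961 CPM. Those 3 libraries were not distinguishable at this depth, while the interval of FS3A, 19.6 to 23.9 CPM, lay above all others. The log2 fold change was the largest of the 10, at 2.78 (SE 1.14, edgeR adjusted p = 0.177).

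Fgf2 encodes basic fibroblast growth factor, which supports photoreceptor survival and is made by stressed Müller glia and photoreceptors (NM_008006, chr3:37348653-37404830, plus strand). The counted model spans 690 exonic bases of this locus. Its level was 15.8, 6.40 and 2.19 CPM in FS3A, FS3B and FS5A, against 4.25, 1.72 and 2.43 CPM in WT1A, WT2A and WT2B. FS5A lay between WT2A and WT2B. The fitted log2 fold change was 1.56 (SE 0.65, edgeR adjusted p = 0.172).

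Single libraries set the size of these differences. Without WT1A, 3 of the 10 genes passed and were higher in C234W: Osmr (log2 fold change 2.99, edgeR adjusted p = 0.0216), A2m (2.31, adjusted p = 0.0358) and Serpina3n (3.13, adjusted p = 0.0398). In that fit 18.5% of all tested genes were called, 8.93% higher and 9.55% lower. The WT libraries left in it were WT2A and WT2B, and the C234W libraries left without FS5A were FS3A and FS3B. Each of these pairs shares a number, so the spread behind the p-values of those fits may be partly technical. With WT2A, WT2B, FS3A, FS3B or FS5A left out, 0 of the 10 passed, and the share of all tested genes called was 0% without WT2A, WT2B or FS3A, 0.00672% without FS3B and 0.0468% without FS5A. At an unadjusted p under 0.05, 9 of the 10 were higher without WT1A (18.8% of all tested genes) and 9 without FS5A (10.6%). The count was 0 without WT2A (6.84%) or WT2B (6.09%), 1 without FS3A (6.84%) and 1 without FS3B (12.5%). Without FS3A, the log2 fold change was 1.03 for Gfap, 1.41 for Timp1, 0.66 for Fgf2 and 0.18 for Socs3. The median of the 10 was 1.00 without FS3A, 1.69 without FS3B, 2.05 without FS5A and 2.29 without WT1A. With libraries of the same number summed, so that each genotype had a pair of samples, the median was 1.09, the value for Socs3 was 0.04, and 0 passed, with adjusted p from 0.458 to 0.992 and 0% of all genes called. Scaling to total counts, and removal of the trend on transcript length, each called 0 of the 10 and 0.00681% of all tested genes. DESeq2 called 1 of the 10, Stat3 (log2 fold change 0.86, adjusted p = 0.0478), and called 11.9% of all tested genes, 4.71% higher.

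**Figure D2:**
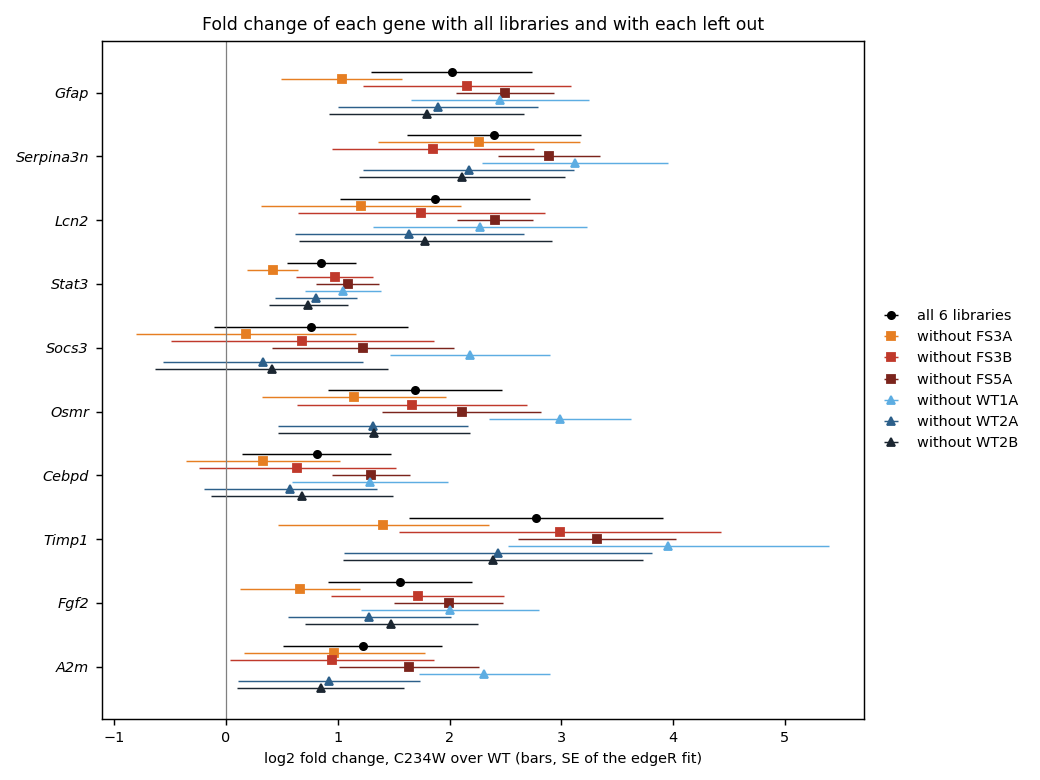
Log2 fold change (C234W over WT) of each gliosis gene with all 6 libraries and with each library left out in turn; bars are standard errors of the edgeR fit. All points lie above 0, and those without WT1A lie farthest right for Timp1 (3.96), Serpina3n (3.13), Osmr (2.99), A2m (2.31), Socs3 (2.18) and Fgf2 (2.01).

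The spread within genotypes was wide for these genes. The SD of log2 CPM among C234W libraries ran from 0.636 for Stat3 to 2.64 for Timp1, where the median over all tested genes was 0.248. Among WT libraries it ran from 0.301 for Stat3 to 1.51 for Socs3, and the median over all tested genes was 0.265. Pooled over the genotypes, Stat3 lay at the 81.4th percentile of tested genes, and the median of the 10 was the 99.2th percentile. Lcn2, Gfap, Cebpd and Fgf2 varied mainly among C234W libraries, with an SD of 2.28, 1.62, 1.62 and 1.39 there against 0.594, 0.619, 0.665 and 0.63 in WT. Osmr and A2m varied at least as much in WT, with an SD of 1.20 and 1.17 in C234W and 1.39 and 1.26 in WT. No test of these spreads was made.

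**Figure D3:**
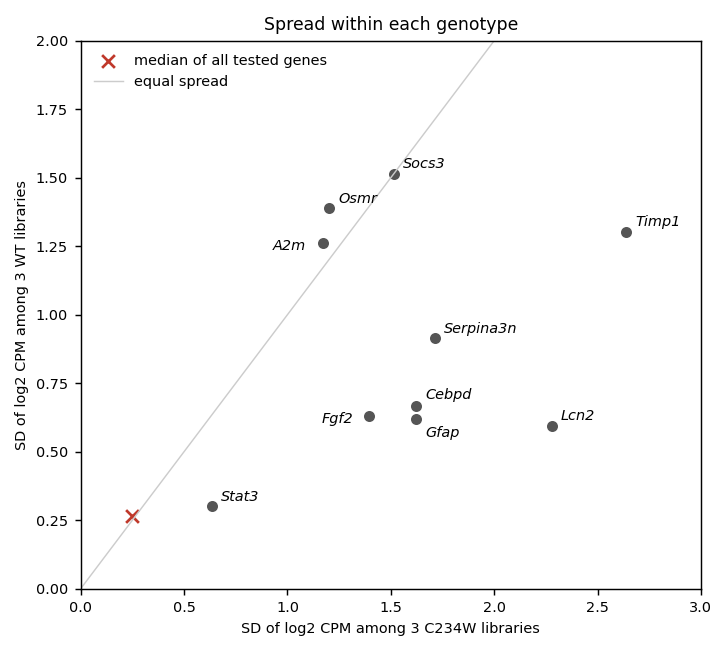
SD of log2 CPM among the 3 C234W libraries (x axis) and the 3 WT libraries (y axis) for each gliosis gene, with the median of all tested genes as a cross (0.248 and 0.265) and a line of equal spread. Timp1 and Lcn2 lie farthest to the right, and Osmr and A2m lie above the line.

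The genes fell into shades of one pattern. FS3A exceeded FS3B most for Timp1 (3.22 times), Gfap (2.50 times) and Fgf2 (2.47 times), and least for A2m (0.984 times) and Serpina3n (0.724 times). WT1A exceeded the mean of WT2A and WT2B most for Socs3 (5.96 times), Osmr (5.36 times) and Timp1 (5.11 times), and least for Stat3 (1.41 times). FS5A was at 2.56 times that mean for Osmr but at 0.485 times for Cebpd and 0.448 times for Lcn2. Over the 6 libraries, the 45 pairs of genes had Pearson r of log2 CPM from 0.721, for Cebpd and Stat3, to 0.984, for Timp1 and Gfap, with a median of 0.916. The points of each pair share the same libraries, depth and scaling, and libraries that may share an animal, so r is given as a description.

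Per kilobase of counted exon, Lcn2 had the highest mean level, 125 CPM per kilobase in C234W and 34.3 in WT. It was the highest of the 10 in each library but FS5A, where it was at 11.7 CPM per kilobase and Stat3 at 27.8. By mean in C234W it was followed by Gfap (46.1), Stat3 (43.0), Cebpd (42.1), Serpina3n (32.7), Socs3 (28.8), Osmr (13.9), Fgf2 (11.8), Timp1 (10.9) and A2m (10.7 CPM per kilobase). In WT the order after Lcn2 was Cebpd (24.0), Stat3 (23.8), Socs3 (17.1), Gfap (11.4), Serpina3n (6.20), A2m (4.62), Osmr (4.32), Fgf2 (4.06) and Timp1 (1.61 CPM per kilobase). The second place of Gfap came from FS3A (91.8 CPM per kilobase); in FS3B it was at 36.7, below Serpina3n (53.5) and Cebpd (51.8). Ranges over the 6 libraries overlapped, at 11.7 to 218 CPM per kilobase for Lcn2 and 7.53 to 91.8 for Gfap. Within each library, however, Lcn2 was above Gfap.

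Further genes of the pathway, 116 in 12 lists, gave 90 that could be tested. In edgeR 0 passed in either direction, with 20 higher and 1 lower at an unadjusted p under 0.05 (12.2% and 13.7% of all tested genes), and DESeq2 called 9, all higher, where it called 11.9% of all tested genes and 4.71% higher. Without WT1A, edgeR called 27, of which 24 were higher and 3 lower, where 18.5% of all tested genes were called, 8.93% higher and 9.55% lower. Their median log2 fold change was 0.41. Groups did not overlap for 7 genes that were higher and 2 that were lower in C234W, against 12.6% and 16.4% of all tested genes. FS3A and FS3B were both above the other 4 libraries for 33 of the 90, or 36.7%, an order found in 10.4% of all tested genes.

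Of 11 ligands, 6 were tested, with a median log2 fold change of 0.30. The smallest p was that of Ctf1, cardiotrophin 1, at 3.23 ± 0.242 CPM in C234W and 4.59 ± 1.34 CPM in WT (SD, n = 3 each, edgeR adjusted p = 0.335). Lif, leukaemia inhibitory factor, which Müller glia release on photoreceptor injury, is named after its values were seen. It had 152, 50.1 and 9.39 CPM in FS3A, FS3B and FS5A, against 86.5, 2.05 and 3.97 CPM in WT1A, WT2A and WT2B. FS3A, WT1A and FS3B were the high libraries, in both genotypes (log2 fold change 1.20, SE 1.42, edgeR adjusted p = 0.628).

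All 8 receptor genes were tested, 6 with a positive log2 fold change and a median of 0.37. Il1r1, the interleukin-1 receptor, had 23.4, 17.7 and 8.90 CPM in FS3A, FS3B and FS5A and 9.23, 5.49 and 4.41 CPM in WT1A, WT2A and WT2B, so the groups touched only at FS5A and WT1A (log2 fold change 1.39, edgeR adjusted p = 0.0796). Among 12 kinases, STAT factors and regulators the median was 0.22. Stat2, a transcription factor of interferon signalling, had 55.7, 38.5 and 50.8 CPM in C234W libraries FS3A, FS3B and FS5A, all above the 28.8, 27.1 and 21.4 CPM of WT1A, WT2A and WT2B. Its log2 fold change was 0.91 (SE 0.20, edgeR adjusted p = 0.0542), and FS5A was not low for it. Without a filter on low counts its adjusted p was 0.0491, in a fit that called 1.83% of all genes and 0.444% higher. Cebpg, one of 11 transcription factors with a median of 0.59, also had groups that did not overlap, at 41.6 ± 11.4 CPM in C234W and 24.7 ± 2.71 CPM in WT (SD, n = 3 each, edgeR adjusted p = 0.084).

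Of 16 acute-phase plasma protein genes 5 were tested, with a median log2 fold change of 0.57. Saa2, Fga and Fgb had 0 counts in all libraries, which allows up to 3 counts in each, or 0.142 to 0.183 CPM in C234W libraries and 0.161 to 0.221 CPM in WT libraries. Cp, the copper-carrying ferroxidase ceruloplasmin, had 314, 285 and 151 CPM in FS3A, FS3B and FS5A and 123, 116 and 157 CPM in WT1A, WT2A and WT2B (edgeR adjusted p = 0.085). FS5A lay within the WT range. All 4 filament genes had a positive log2 fold change, with a median of 0.52. Plec, the cytoskeletal linker plectin, was at 113 ± 19.9 CPM in C234W and 68.3 ± 10.8 CPM in WT without overlap (SD, n = 3 each, edgeR adjusted p = 0.0657). Vim, vimentin, named after its values were seen, was at 176 ± 72.9 CPM in C234W and 157 ± 9.26 CPM in WT, with a log2 fold change of 0.17 (edgeR adjusted p = 0.727).

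Of 11 metalloproteinases and inhibitors 9 were tested, with a median log2 fold change of 0.44. Adamts9, a matrix protease, had 20.7, 5.03 and 2.80 CPM in FS3A, FS3B and FS5A, all above the 1.46, 1.94 and 0.809 CPM of WT1A, WT2A and WT2B (log2 fold change 2.72, SE 0.76, edgeR adjusted p = 0.0786). The 12 FGF genes had a median of 0.29, and Spry1, a feedback inhibitor of receptor tyrosine kinases, was at 18.5 ± 9.02 CPM in C234W and 8.05 ± 2.18 CPM in WT (SD, n = 3 each, edgeR adjusted p = 0.113). Of the list of A2m relatives and their receptor, 2 of 5 genes were tested, the receptor Lrp1 and its chaperone Lrpap1, and Lrp1 was at 118 ± 14.7 CPM in C234W and 91.0 ± 25.9 CPM in WT (SD, n = 3 each, edgeR adjusted p = 0.285). The relatives of A2m on the list did not pass the filter on low counts, and Pzp and Mug1 had 0 counts in all libraries.

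Genes known from reactive astrocytes of the mouse brain followed the same libraries in part. Of 6 pan-reactive genes 5 were tested, all with a positive log2 fold change and a median of 1.37. Of the 5, 4 had FS3A and FS3B above the other libraries, an order found in 10.4% of all tested genes. It held for 3 of 8 tested genes reported after lipopolysaccharide and for 2 of 8 reported after ischaemia. Steap4, a metalloreductase, had 29.8, 23.6 and 0.366 CPM in FS3A, FS3B and FS5A and 4.72, 1.72 and 1.69 CPM in WT1A, WT2A and WT2B (log2 fold change 2.74, SE 1.09, edgeR adjusted p = 0.169). FS5A held its lowest value, as for Lcn2 and Cebpd. Genes reported after lipopolysaccharide had a median of 0.42 over 8 tested, with the smallest p for the proteoglycan Srgn. It had 7.55, 6.40 and 2.99 CPM in FS3A, FS3B and FS5A and 1.73, 3.01 and 3.24 CPM in WT1A, WT2A and WT2B (log2 fold change 1.09, edgeR adjusted p = 0.139), and here WT1A was the lowest library. Those reported after ischaemia had a median of 0.83 over 8 tested, with the smallest p for the endotoxin co-receptor Cd14. It had 8.32, 6.92 and 2.56 CPM in FS3A, FS3B and FS5A and 4.38, 0.538 and 0.956 CPM in WT1A, WT2A and WT2B (log2 fold change 1.64, edgeR adjusted p = 0.171). This was the order seen for most of the gliosis genes, with WT1A after FS3A and FS3B, and 1 of the 8 had it.

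Among the 14675 tested genes outside the 10, 287 had a Pearson r of at least 0.9 with the mean standardised log2 CPM of the gliosis genes over the 6 libraries. Genes with a mean under 1 CPM, and symbols of Gm plus digits or ending in Rik, were then set aside. Of the rest, the 10 of highest r were Nln, Nr1h4, Cxcl1, Zfp36l1, Tnfaip2, Gcnt2, Arhgap42, Tmub1, Prr5l and Plekho2, with r from 0.988 to 0.999. A high r can go with a small range. Nln, of the highest r, ran from 6.92 CPM in WT2B to 13.4 CPM in FS3A. Tmub1 ran from 14.4 CPM in WT2B to 21.2 CPM in FS3A. Cxcl1, a chemokine that attracts neutrophils, had 25.6, 12.3 and 0.244 CPM in FS3A, FS3B and FS5A and 3.32, 0.323 and 0.147 CPM in WT1A, WT2A and WT2B. Nr1h4, the bile acid receptor FXR, had 6.57, 5.22 and 1.52 CPM in C234W libraries in that order and 2.99, 1.51 and 1.47 CPM in WT libraries. Zfp36l1, an RNA-binding protein that promotes decay of AU-rich transcripts, was at 55.6, 48.9 and 18.4 CPM in the C234W libraries and 32.9, 16.7 and 17.4 CPM in the WT libraries. They were chosen by their likeness over these libraries, so no test between the genotypes is given for them.

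**Figure D4:**
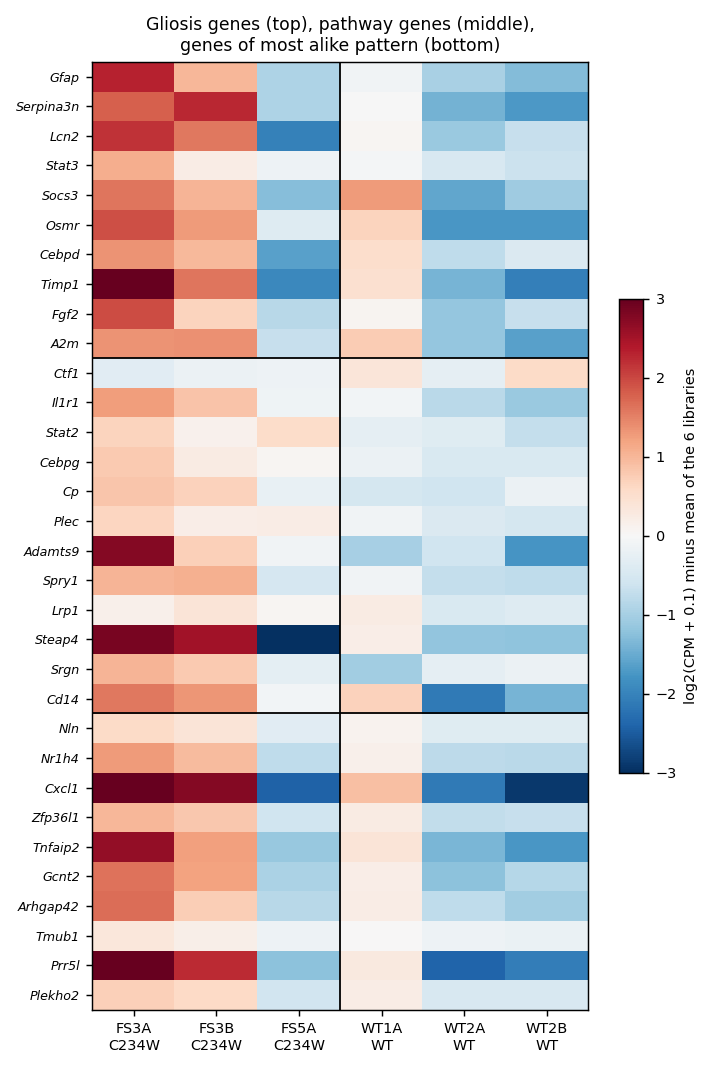
Log2(CPM + 0.1) minus the mean of the 6 libraries, on a colour scale that stops at -3 and 3, with C234W libraries left and WT libraries right, for the 10 gliosis genes, the pathway gene of smallest p in each list, and the 10 genes of most alike pattern. FS3A and FS3B are red in most rows, whereas FS5A is blue or near white in the top and bottom blocks and red for Stat2, where it had 50.8 CPM.

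Markers of the cells that could carry these transcripts are set beside them. The summed level of the 10 gliosis genes was 251 to 1300.1 CPM in C234W libraries and 224 to 531 CPM in WT libraries. Müller glia markers, 11 of 11 tested, summed to 3666 to 4936 CPM in C234W libraries and 4587 to 6366 CPM in WT libraries, and 0 passed in edgeR. Glul alone made up 2121 to 2345 CPM of the C234W sums and 2658 to 3355 CPM of the WT sums. Glul, Rlbp1 and Prdx6 were lower in C234W without overlap, as were 16.4% of all tested genes. The log2 fold change was positive for 4 of the 11, among them Crym (0.63) and Aqp4 (0.59). At an unadjusted edgeR p under 0.05, 2 of the 11 were lower and 0 higher, against 13.7% and 12.2% of all tested genes. Astrocyte markers, 6 of 6 tested, summed to 58.2 to 93.5 CPM in C234W libraries, with FS3A and FS3B the highest at 88.8 and 93.5 CPM, and to 47.2 to 65.4 CPM in WT libraries. Of these sums, Slc14a1 made up 39.2 CPM in FS3A and 37.7 CPM in FS3B, against 16.5 CPM in WT1A. FS3A and FS3B were both above the other libraries for 2 of the 6, an order found in 10.4% of all tested genes. The log2 fold change was positive for 4 of the 6. In edgeR 0 passed, with 1 higher at an unadjusted p under 0.05 (12.2% of all tested genes). The part of either marker list in the gliosis values was not tested.

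Microglia and macrophage markers, 10 of 10 tested, summed to 46.6 to 69.3 CPM in C234W libraries and 53.3 to 80.6 CPM in WT libraries. FS3A and FS3B were on top for 0 of 10, against 10.4% of all tested genes, a share too small for 10 genes to show a difference. Leukocyte markers were near 0, at 2.38 to 6.95 CPM summed over 9 genes in C234W libraries and 1.26 to 2.72 CPM in WT libraries, with Cd3e, Ly6g and Ms4a1 at 0 counts in all libraries. The neutrophil gene S100a9, named after its values were seen, was at 3.61, 0.379 and 0.366 CPM in FS3A, FS3B and FS5A and at 0.133, 0.108 and 0.221 CPM in WT1A, WT2A and WT2B, on 66 tags in FS3A and at most 8.5 in any other library. Endothelial markers summed to 144 to 179 CPM in C234W libraries, against 77.5 to 130.1 CPM in WT libraries. Erythrocyte markers were at 58.4 to 80.4 CPM in C234W libraries and 117 to 222 CPM in WT libraries, with 5 of 6 lower at an unadjusted p under 0.05 (13.7% of all tested genes). Bipolar cell markers were at 1057 to 1124 CPM in C234W libraries and 731 to 909 CPM in WT libraries, with 3 of 6 higher at an unadjusted p under 0.05 (12.2% of all tested genes). In edgeR 0 genes of these 3 lists passed, and their summed levels did not overlap between genotypes. The rod sums given above did not overlap either, with 5 of 10 rod markers lower at an unadjusted edgeR p under 0.05 (13.7% of all tested genes). The part of these lists in the gliosis values, and that of the pigment epithelium markers, some of them highest in WT1A, was not tested.

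**Figure D5:**
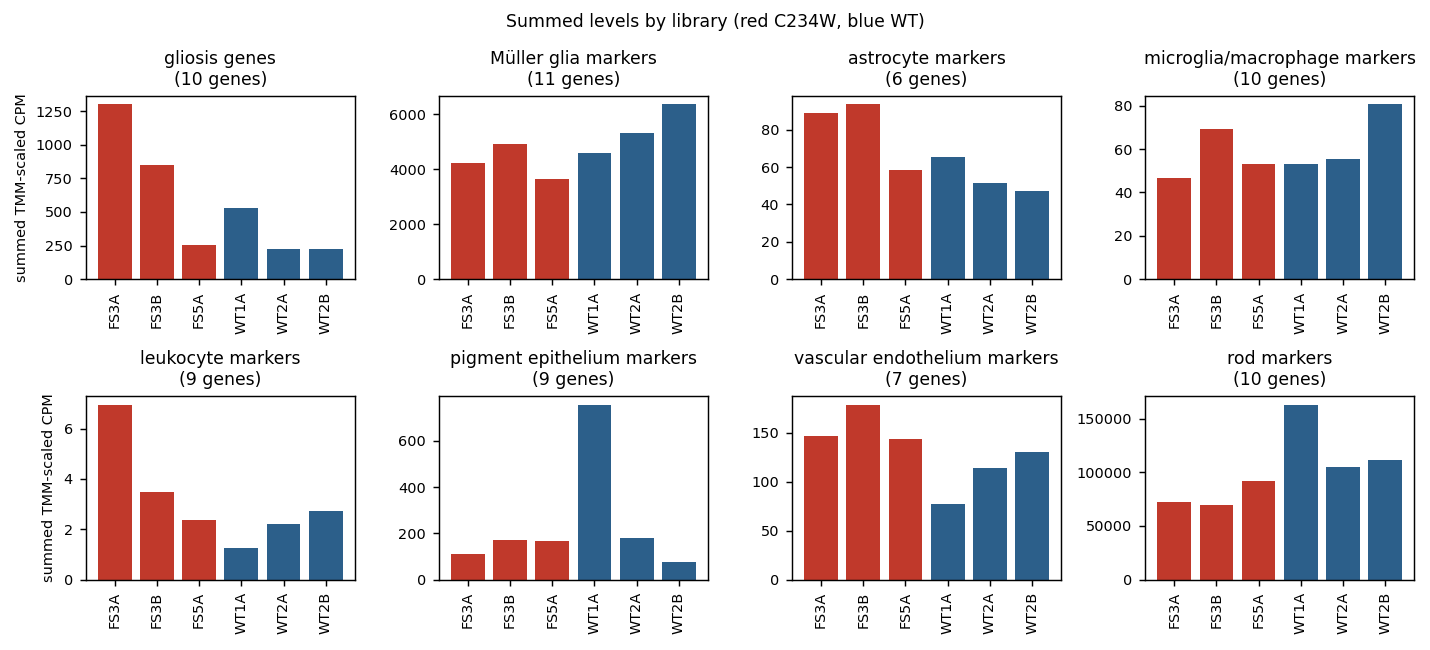
Summed TMM-scaled CPM of the 10 gliosis genes and of 7 marker lists in each library, C234W in red on the left and WT in blue on the right, each panel on its own axis from 0. The gliosis sum is highest in FS3A (1300.1 CPM), the pigment epithelium sum in WT1A (756 CPM), and the Müller glia sum in WT2B (6366 CPM).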

How the data were processed

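Reads of the 6 poly-A libraries were aligned by the authors to mm10 (STAR 2.7.8a is listed in the submitters' processing notes). Per the file headers and labels, HOMER then summed unique tags over exons, using the minus strand and a single isoform for each locus. Sources used here name no gene model release. The deposited values are estimated counts, not normalized, in steps of 0.5 (28.3 to 32.1% of values not whole), and were rounded. Columns with the prefix FS hold C234W by elimination: the header's command lists 3 directories of each genotype, and no label explains FS. Every direction rests on this. Of the sample columns, 0 were unused.

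Genes were kept by filterByExpr (14685 of 25124), scaled by TMM and compared with edgeR 4.0.16 in R 4.3.3 (quasi-likelihood test, robust, no covariate), with Benjamini-Hochberg adjustment over all tested genes and a threshold of 0.05. CPM are TMM-scaled and given per library or as mean ± SD, and log2 CPM use a prior count of 2. Alternatives were other scalings and filters, DESeq2 1.42.0, limma-voom 3.58.1, removal of each library's loess trend on transcript length (span 0.3), summed libraries and each library left out. The fits were tested on simulated data. There edgeR detected 32% of the 2-fold and 83% of the 4-fold changes, and 8 of its 123 calls were wrong. DESeq2 detected 40% and 87%, but 32 of its 159 calls were wrong. Most simulated 2-fold changes were thus missed by edgeR, so 0 genes passing does not mean that changes of that size were absent. Genes called by DESeq2 and not by edgeR, Stat3 among them, are less certain for the same reason. Named genes were the 10, in each pathway list those past the threshold or else that of smallest p, and the 10 most alike in pattern after the exclusions given above. Others are said to be named after their values were seen. The genes and lists were chosen with earlier results of these data known.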

Additional observations from a re-analysis of the deposited data

How the results depend on the processing

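All 10 gliosis genes kept a positive log2 fold change under every alternative run. The number called, 0 in edgeR with all libraries, was 1 with DESeq2 (Stat3, log2 fold change 0.86) and 0 to 3 with single libraries left out, the 3 without WT1A. Over the libraries left out, the log2 fold change ranged from 1.85 to 3.13 for Serpina3n, from 1.14 to 2.99 for Osmr, from 0.85 to 2.31 for A2m, from 1.03 to 2.50 for Gfap, from 1.21 to 2.41 for Lcn2, from 0.42 to 1.09 for Stat3, from 0.18 to 2.18 for Socs3, from 0.33 to 1.29 for Cebpd, from 1.41 to 3.96 for Timp1 and from 0.66 to 2.01 for Fgf2. The lowest of each was without FS3A, except for Serpina3n (FS3B) and A2m (WT2B). The pathway genes called, 0 in edgeR, were 9 with DESeq2, 1 without a filter on low counts (Stat2), and 0 to 27 with single libraries left out (27 without WT1A, 1 without FS5A). Under total-count scaling the gliosis genes had a median log2 fold change of 1.85, with 0 called, while the median over all genes was 0.21 in place of 0.02. With the length trend removed their median was 1.71, with 0 called; the cause of the changed calls was not tested. All genes called in edgeR were 267 with all libraries, 2771 without WT1A, 7 without FS5A and 1754 by DESeq2. No paired analysis was possible because the columns carry no replicate number of the labels. Depth limits Timp1, which rests on 6 to 14 counts in 3 libraries.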
